A study of Mus musculus with 8 samples.

Results

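The 31 genes described here encode the enzymes of glycolysis and of glycogen synthesis and breakdown in muscle, their regulatory subunits, and a few enzymes at their branches. They were chosen by symbol, with the row of highest mean taken where a symbol had several, and all 31 were found among 38741 gene symbols, each on a single row. They comprise 15 glycolytic enzymes, 11 glycogen genes and 5 regulators or branch enzymes. Messenger RNA came from gastrocnemius, a mostly fast-twitch muscle of the calf, in 8 male mice on a C57BL6 background. The 4 wild-type mice (WT1 to WT4) were 9 to 10 weeks old and weighed 22 to 25 g. The other 4 mice were homozygous for the Bcat2tm1.2Clyn allele (KO5 to KO8), 10 to 11 weeks old and 15 to 24 g, a knockout of Bcat2. Bcat2 encodes BCATm, the mitochondrial enzyme that takes the first step in branched-chain amino acid breakdown. All 8 mice and their dams were offered both an 18% protein chow and a purified diet without branched-chain amino acids. The labels name neither litters nor the deleted exons. Body weight averaged 24 ± 1.41 g in the wild-type mice against 19.5 ± 4.20 g in the knockouts (SD, n = 4 each), and the knockout columns cannot be tied to the age or weight of single mice, so genotype and body weight cannot be told apart here.

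Glycolysis breaks glucose down to pyruvate and supplies ATP fastest in the fast fibres that fill this muscle. Glycogen is the glucose store within the fibre: glycogenin starts the particle, glycogen synthase and branching enzyme build it, and glycogen phosphorylase, switched on by phosphorylase kinase, releases phosphorylated glucose during contraction. Several steps have a form made mainly in muscle and another made in most tissues, so the ratio of these forms also reflects which cells are in the sample.

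Values are FPKM, mapped fragments per length of exon and per total fragments, 1 value per gene and mouse. FPKM are scaled by length, so levels of different genes can be set beside each other, although they do not count molecules. Differences are given as knockout minus wild type of log2(FPKM + 1). They were tested with limma over the 11118 genes with a mean of at least 1 FPKM, all 31 members among them, at a Benjamini-Hochberg adjusted p under 0.05. Bcat2 itself stood at 53.2 ± 19.9 FPKM in the wild-type mice against 3.29 ± 1.37 FPKM in the knockouts (SD, n = 4 each), with every knockout below every wild-type mouse (limma adjusted p = 0.00245).

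The libraries differed in ways that touch these genes. Summed over 8 markers, adipocyte transcripts came to 15746 FPKM in WT1 and 8296 FPKM in KO6, against 642 to 2047 FPKM in the other 6 mice, and none of the 8 was at 0. Among those 6 mice the genotypes did not overlap, at 730, 642 and 755 FPKM in WT2 to WT4 and 2047, 1367 and 1338 FPKM in KO5, KO7 and KO8. Over all mice, 0 of the 8 markers had a higher knockout mean. Leaving out WT1 and KO6 thus does not make the genotypes alike in adipocyte markers. KO6 also held 413 FPKM over 6 keratinocyte markers, against 1.84 to 3.06 FPKM elsewhere. The 12 fast fibre markers summed to 123292 to 149269 FPKM in wild-type mice against 123925 to 174714 FPKM in knockouts, so the muscle label held in every library. The 11 slow fibre markers summed to 323 to 1437 FPKM in wild-type mice against 605 to 1901 FPKM in knockouts, with 1 of them at 0 throughout. Marker lists of other cells were not tested between genotypes, and the sums of each overlapped. Of 8 Schwann cell markers, 7 had higher knockout means, and they summed to 50.6 to 94.6 FPKM in wild-type mice against 75.9 to 185 FPKM in knockouts. For the 6 of these with a mean of at least 1 FPKM, the median relative to all genes lay at -0.69 to -0.053 in wild type. In knockouts that median lay at -0.0036 to 0.92, without overlap but with a narrow gap. None of 5 endothelial markers had a higher knockout mean, and they summed to 39.4 to 66.6 FPKM against 22.7 to 44.5 FPKM. Of 6 fibroblast markers, 1 had a higher knockout mean, and they summed to 420.1 to 703 FPKM against 369 to 558 FPKM. Of 6 macrophage markers, 2 had a higher knockout mean, and they summed to 37.0 to 97.1 FPKM against 51.6 to 89.5 FPKM. Of 5 erythroid markers, 1 had a higher knockout mean, and they summed to 858 to 1770 FPKM against 557 to 2094 FPKM. Depth relative to WT2, read from the lowest FPKM, ran from 0.437 in WT4 to 1.23 in WT3. The median difference of all tested genes was -0.12 on the log2 scale, and KO8, whose median gene lay at -0.35 from the 8-mouse mean, was the lowest mouse. Median-ratio scaling moved that median to -0.002. The part of fat, nerve, vessel and connective tissue cells, fibre type and depth in the results below was not tested.

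Most genes of the glycolytic chain had lower mean values in Bcat2 knockout muscle, but none passed the test. In the 8 members whose knockout values all lay below the wild-type values (Gpi1, Pfkm, Pgk1, Pgam2, Pkm, Phkg1, Gys1 and Pfkfb1), the knockout mean was 60.3% to 77.4% of the wild-type mean. The lowest limma adjusted p among the 31 genes was 0.48, where 0.027% of all tested genes were called. Without adjustment, 13 members had a p under 0.05 and a lower knockout mean, and 2 had a higher one, where 7.33% and 2.99% of all tested genes did so. After median-ratio scaling these counts were 2 and 2, where 5.16% and 6.75% of all genes did so. Without WT1 and KO6, whose adipocyte markers were high, they were 10 and 0, where 6.77% and 3.11% of all genes did so. The mice left in that comparison still differed by genotype in adipocyte markers, as given above. Groups without overlap were found in those 8 members on the lower side and in Ppp1r3a on the higher side, each with an exact permutation p of 0.0286, the smallest that 4 against 4 mice allow. Among all tested genes 4.68% and 2.08% were separated in this way. After median-ratio scaling 0 members were separated on the lower side and 1, Pfkfb3, on the higher side, against 2.85% and 3.64% of all tested genes. The plot of differences by role shows both scalings. In bulk muscle, fewer cells of a type and less RNA per cell cannot be told apart.

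**Figure D1:**
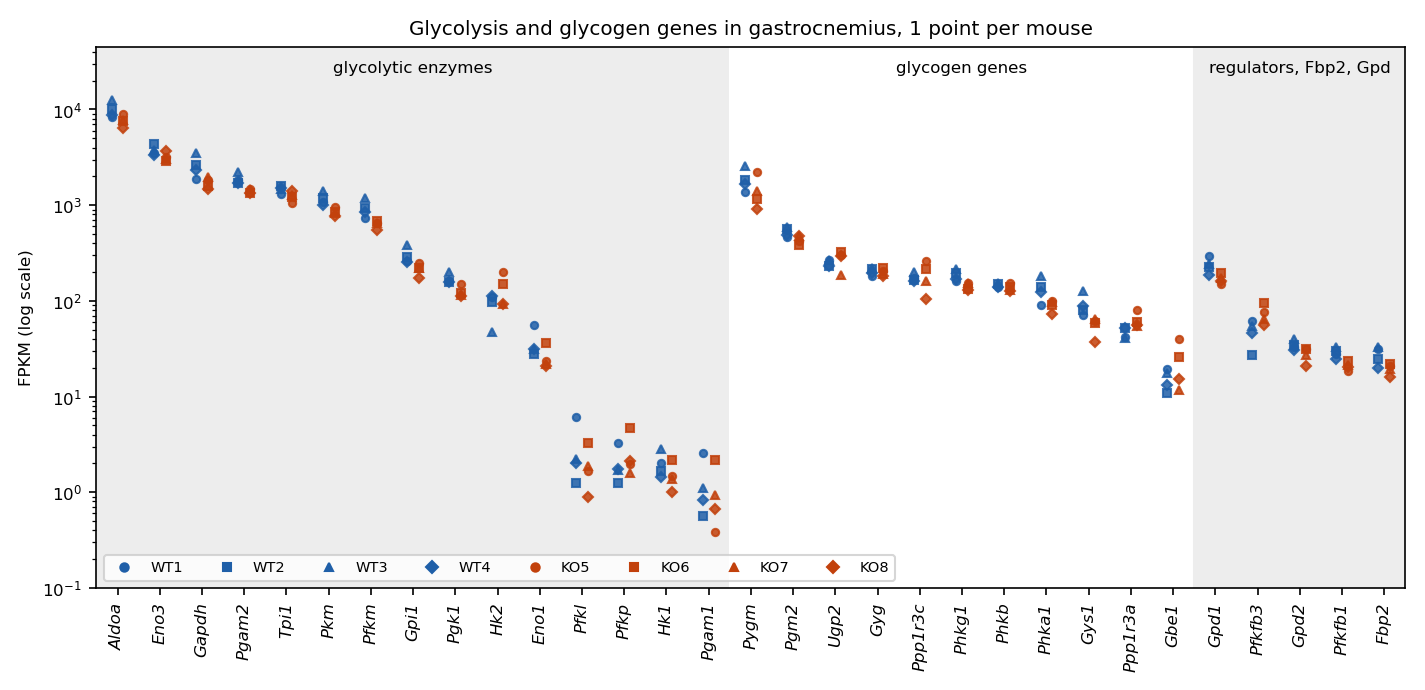
FPKM of the 31 genes on a log axis, grouped by role and ordered by mean, with 1 point per mouse (blue for wild type, orange for knockout, a shape for each mouse). Levels run from 0.38 FPKM for Pgam1 in KO5 to 12691 FPKM for Aldoa in WT3, and for most glycolytic enzymes the knockout points sit at the lower end of the wild-type points or beneath it.

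**Figure D2:**
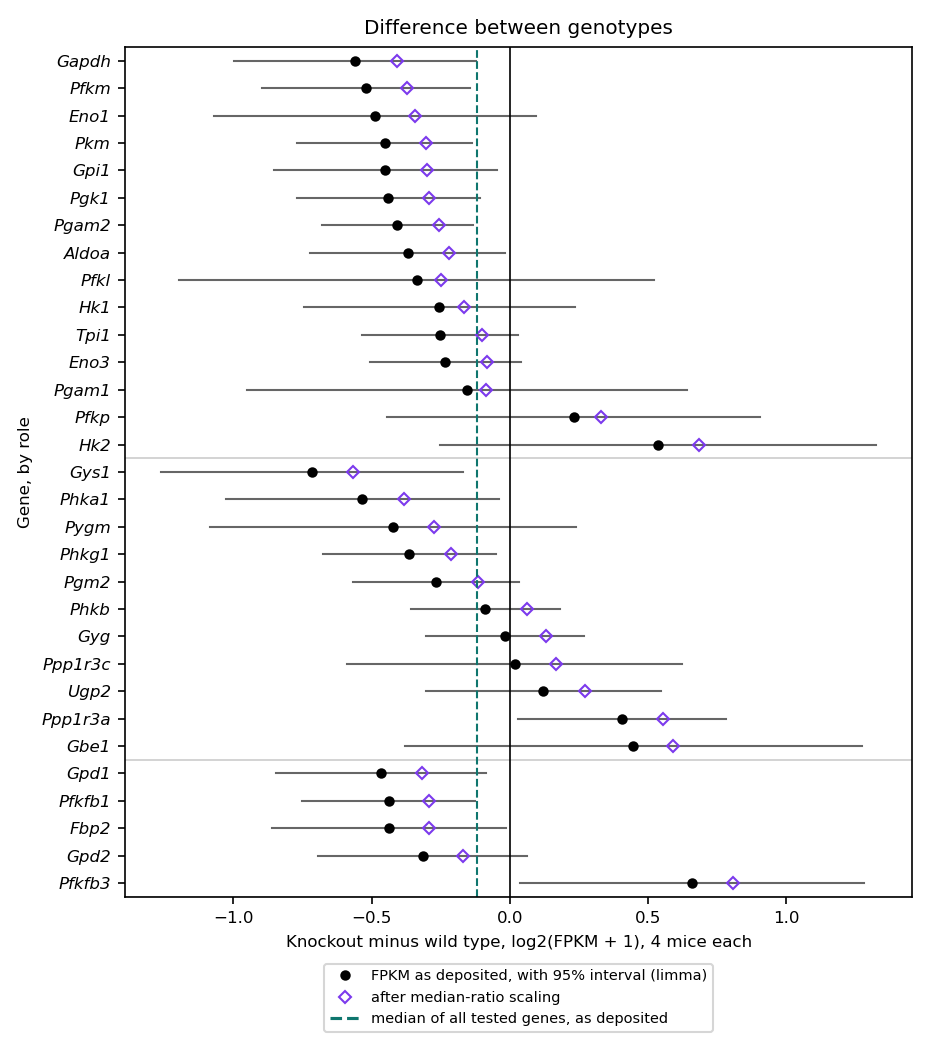
Knockout minus wild type on the log2(FPKM + 1) scale for each gene, as deposited (black, with limma 95% interval) and after median-ratio scaling (open diamonds), with the median of all tested genes as a dashed line. Of the 15 glycolytic enzymes, 13 lie below 0 under both scalings, while the glycogen genes lie on either side.

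Glucose enters the chain through hexokinase. Hk2, the insulin-responsive muscle hexokinase, stood at 109, 97.3, 47.8 and 111 FPKM in WT1 to WT4 and 201, 148, 91.8 and 92.7 FPKM in KO5 to KO8. KO5 and KO6 were the highest mice and WT3 the lowest, while KO7 and KO8 lay inside the wild-type range, and the difference was 0.54 (SE 0.35, 95% interval -0.25 to 1.33, limma adjusted p = 0.53). It was 0.25 without WT3 and 0.31 without KO5. Hk1, the hexokinase of most tissues, was low, at 2.02, 1.66, 2.83 and 1.44 FPKM in WT1 to WT4 and 1.49, 2.15, 1.37 and 0.998 FPKM in KO5 to KO8.

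Gpi1, glucose phosphate isomerase (ENSMUSG00000036427, mm10 chromosome 7, 34202122 to 34230289), read 261, 286, 386 and 255 FPKM in WT1 to WT4 and 247, 221, 222 and 172 FPKM in KO5 to KO8. Every knockout was below every wild-type mouse, though the gap between KO5 and WT4 was small, and the knockout mean was 72.7% of the wild-type mean. Its difference was -0.45 (SE 0.18, 95% interval -0.85 to -0.047, limma adjusted p = 0.48).

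Phosphofructokinase is the main control point of the chain, and Pfkm (ENSMUSG00000033065, mm10 chromosome 15, 98092589 to 98132447) is its muscle subunit. Pfkm stood at 726, 935, 1190.4 and 848 FPKM in WT1 to WT4 and 655, 681, 659 and 548 FPKM in KO5 to KO8. The groups did not overlap, and WT3 was the highest mouse. Its means were 925 ± 197 FPKM in the wild-type mice against 636 ± 59.6 FPKM in the knockouts (SD, n = 4 each), a difference of -0.52 (SE 0.17, 95% interval -0.90 to -0.14, limma adjusted p = 0.48).

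Aldoa, the aldolase that cleaves fructose bisphosphate into triose phosphates, was the most abundant of the 31 genes and ranked 13 among all genes by mean FPKM. It read 8344, 10193, 12691 and 8775 FPKM in WT1 to WT4 and 8947, 7587, 7737 and 6482 FPKM in KO5 to KO8. KO5 lay within the wild-type range and the other 3 knockouts beneath it, and the difference was -0.37 (SE 0.15, 95% interval -0.72 to -0.016, limma adjusted p = 0.48). Aldoa alone made up 44.5% ± 1.74 of the summed glycolytic FPKM in the wild-type mice against 44.5% ± 3.12 in the knockouts (SD, n = 4 each). Tpi1, triose phosphate isomerase, had means of 1473 ± 119 FPKM in the wild-type mice against 1240.4 ± 151 FPKM in the knockouts (SD, n = 4 each), with KO8 at 1416 FPKM inside the wild-type range.

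Gapdh, which oxidises glyceraldehyde phosphate and is widely used as a reference gene, varied widely across these mice. It read 1863, 2659, 3478 and 2334 FPKM in WT1 to WT4 and 1825, 1596, 1959 and 1491 FPKM in KO5 to KO8. WT3 had the highest value and KO8 the lowest, WT1 lay among the knockouts, and the difference was -0.56 (SE 0.19, 95% interval -0.999 to -0.12, limma adjusted p = 0.48). Pgk1, phosphoglycerate kinase on the X chromosome, read 160.4, 158, 199.9 and 159 FPKM in WT1 to WT4 and 149.6, 121, 114 and 113 FPKM in KO5 to KO8. Its groups did not overlap, WT3 stood above the other 3 wild-type mice, which lay between 157.5 and 160.4 FPKM, and the difference was -0.44 (SE 0.15, 95% interval -0.77 to -0.11, limma adjusted p = 0.48).

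Pgam2, the muscle phosphoglycerate mutase (ENSMUSG00000020475, mm10 chromosome 11, 5801640 to 5803733), had the smallest unadjusted p of the 31 genes. It stood at 1853, 1691, 2233 and 1712 FPKM in WT1 to WT4 and 1471, 1332, 1477 and 1337 FPKM in KO5 to KO8. All knockouts lay below all wild-type mice and close to each other, and the difference was -0.41 (SE 0.12, 95% interval -0.68 to -0.13, limma adjusted p = 0.48). Eno3, the muscle enolase and the second most abundant member, read 3470.5, 4378, 3789 and 3385 FPKM in WT1 to WT4 and 3186, 2922, 3006 and 3647 FPKM in KO5 to KO8. KO8, the lowest mouse for many members, was inside the wild-type range here, and the difference was -0.23 (95% interval -0.51 to 0.041).

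Pkm encodes pyruvate kinase, which makes pyruvate and ATP at the end of the chain. Its muscle and embryonic splice forms are not separated in gene-level values. Pkm (ENSMUSG00000032294, mm10 chromosome 9, 59656368 to 59679375) stood at 1078, 1186, 1408 and 996 FPKM in WT1 to WT4 and 961, 844, 825 and 763 FPKM in KO5 to KO8. The groups did not overlap, with WT4 and KO5 adjacent, and the difference was -0.45 (SE 0.14, 95% interval -0.77 to -0.14, limma adjusted p = 0.48).

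The bifunctional enzymes that make and break down a second fructose bisphosphate, an activator of phosphofructokinase, had means that differed in opposite directions. Pfkfb1, the liver and muscle form (ENSMUSG00000025271, mm10 chromosome X, 150588229 to 150643878), read 27.97, 30.2, 32.7 and 24.5 FPKM in WT1 to WT4 and 18.6, 23.6, 21.2 and 20.5 FPKM in KO5 to KO8. Each knockout was below each wild-type mouse, a difference of -0.44 (SE 0.14, 95% interval -0.75 to -0.13, limma adjusted p = 0.48). Pfkfb3, the inducible form with the highest kinase activity (ENSMUSG00000026773, mm10 chromosome 2, 11471430 to 11502101), read 61.3, 27.1, 54.4 and 46.5 FPKM in WT1 to WT4 and 77.2, 95.9, 65.1 and 56.2 FPKM in KO5 to KO8. KO5, KO6 and KO7 exceeded every wild-type mouse and KO8 lay between WT3 and WT1, while WT2 stood far below the rest. The difference of 0.66 (SE 0.27, 95% interval 0.038 to 1.28, limma adjusted p = 0.48) gave an exact permutation p of 0.0571, and it was 0.42 without WT2.

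At the branches of the chain, Fbp2, the muscle fructose bisphosphatase that runs the phosphofructokinase step in reverse, stood at 31.2, 24.7, 32.7 and 20.0 FPKM in WT1 to WT4 and 20.96, 22.01, 19.3 and 15.99 FPKM in KO5 to KO8. The groups overlapped through WT4, and the difference was -0.44 (95% interval -0.86 to -0.013). Gpd1, the cytosolic glycerol phosphate dehydrogenase, which is also abundant in fat, read 297, 228, 243 and 185 FPKM in WT1 to WT4 and 152, 195, 174 and 161 FPKM in KO5 to KO8. WT1 was highest, KO6 was highest among the knockouts, and both carried raised fat transcripts. The difference in Gpd1 was -0.47 (95% interval -0.85 to -0.087), and -0.42 without WT1 and KO6. Gpd2, its mitochondrial partner in the glycerol phosphate shuttle, had means of 34.3 ± 3.87 FPKM in the wild-type mice against 27.6 ± 5.004 FPKM in the knockouts (SD, n = 4 each).

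Glycogen breakdown is run by phosphorylase and its kinase. Pygm, the muscle glycogen phosphorylase, spread widely, from 1377 to 2584 FPKM in the wild-type mice against 918 to 2225 FPKM in the knockouts, with KO5 at 2225 FPKM above 3 of the wild-type mice. Its difference was -0.42 (95% interval -1.08 to 0.24). It was -0.24 without KO8, -0.25 without WT3 and -0.66 without KO5, and -0.13 with array weights. Phosphorylase kinase, which activates it, has a regulatory alpha, a regulatory beta and a catalytic gamma subunit besides calmodulin. The muscle alpha subunit Phka1 read 90.9, 139, 181 and 122 FPKM in WT1 to WT4 and 100.3, 89.9, 96.4 and 72.3 FPKM in KO5 to KO8, with WT1 among the knockouts and a difference of -0.53 (95% interval -1.03 to -0.039). The muscle gamma subunit Phkg1 read 161, 194, 213 and 169.8 FPKM in WT1 to WT4 and 153, 134, 154 and 129 FPKM in KO5 to KO8. Its groups did not overlap, at a difference of -0.36 (95% interval -0.68 to -0.051), whereas the shared beta subunit Phkb had means of 146 ± 8.204 FPKM in the wild-type mice against 137 ± 12.2 FPKM in the knockouts (SD, n = 4 each) and a difference of -0.088 (95% interval -0.36 to 0.18), which was 0.061 after median-ratio scaling.

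Gys1, the muscle glycogen synthase, had the most negative difference of the 31 genes. Gys1 (ENSMUSG00000003865, mm10 chromosome 7, 45434844 to 45456619) stood at 70.7, 81.1, 128 and 87.9 FPKM in WT1 to WT4 and 61.99, 58.8, 64.1 and 36.8 FPKM in KO5 to KO8. The groups did not overlap, and WT3 and KO8 held the extremes. Its mean in knockouts was 60.3% of that in wild type, at 91.9 ± 25.1 FPKM in the wild-type mice against 55.4 ± 12.6 FPKM in the knockouts (SD, n = 4 each), a difference of -0.72 (SE 0.24, 95% interval -1.26 to -0.17, limma adjusted p = 0.48). Gys1 lies 114 kb from Bcat2 on chromosome 7, and the next nearest member, Gpi1, lies 11339.9 kb away. Effects of the targeted locus on its neighbours and of the missing enzyme cannot be told apart for it.

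Of the primer, precursor and branching genes of glycogen synthesis, Gyg, Ugp2 and Gbe1 had knockout means near or above those of wild type. The knockout mean of Pgm2 was 83.0% of the wild-type mean. Gyg, the glycogenin primer, had means of 203 ± 18.9 FPKM in the wild-type mice against 199.99 ± 17.1 FPKM in the knockouts (SD, n = 4 each) and a difference of -0.017 (95% interval -0.30 to 0.27). Ugp2, which makes the UDP-glucose that synthase uses, read 229 to 269 FPKM in the wild-type mice against 187 to 322 FPKM in the knockouts. Gbe1, the branching enzyme, read 10.9 to 19.3 FPKM in the wild-type mice against 11.7 to 39.5 FPKM in the knockouts, with KO5 at 39.5 FPKM and KO6 at 26.0 FPKM above every wild-type mouse and a difference of 0.45 (95% interval -0.38 to 1.27) that was 0.15 without KO5. Pgm2, the deposited symbol of the phosphoglucomutase that links glycogen to glycolysis, had means of 527 ± 57.8 FPKM in the wild-type mice against 438 ± 45.01 FPKM in the knockouts (SD, n = 4 each). Its identifier, ENSMUSG00000025791, mm10 chromosome 4, 99929414 to 99987294, carries the symbol Pgm1 in GENCODE M21, and the deposited Pgm1 row, the gene now called Pgm2, read 1.29 and 1.37 FPKM on average in the 2 genotypes.

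Ppp1r3a and Ppp1r3c tether the protein phosphatase PP1 to the glycogen particle, where it activates synthase and inactivates phosphorylase. Ppp1r3a, the striated muscle subunit (ENSMUSG00000042717, mm10 chromosome 6, 14713822 to 14755274), read 41.9, 51.7, 41.1 and 52.3 FPKM in WT1 to WT4 and 79.7, 60.7, 54.4 and 55.7 FPKM in KO5 to KO8. As deposited, it was the single member with every knockout above every wild-type mouse, at 46.8 ± 6.08 FPKM in the wild-type mice against 62.6 ± 11.7 FPKM in the knockouts (SD, n = 4 each) and a difference of 0.41 (SE 0.17, 95% interval 0.028 to 0.78, limma adjusted p = 0.48). Ppp1r3c read 161 to 198 FPKM in the wild-type mice against 104 to 261 FPKM in the knockouts, with KO5 highest and KO8 lowest of all 8 mice.

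**Figure D3:**
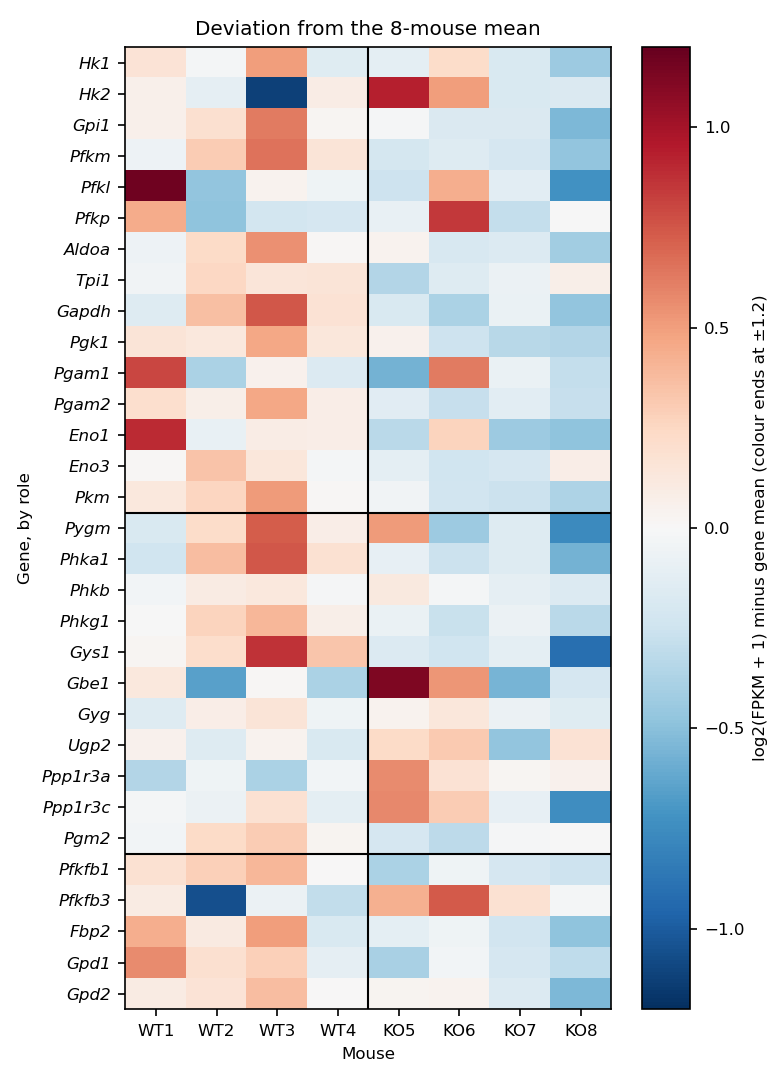
Deviation of each gene from its own 8-mouse mean on the log2(FPKM + 1) scale, red above and blue below, genes in rows by role and mice in columns. WT3 is red for most glycolytic rows and KO8 blue, while Hk2, Gbe1, Ppp1r3a and Ppp1r3c are reddest in KO5.

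The highest and lowest values fell mostly in a few mice. Of the 31 genes, 18 had their highest value in WT3 and 17 their lowest in KO8. After median-ratio scaling, WT3 was highest for 9 genes and KO6 lowest for 15. Without WT2 the count of lower members with an unadjusted p under 0.05 was 8, without WT3 it was 9, without KO7 it was 9 and without KO8 it was 8, where 13 were found with all mice. KO5 was highest for Hk2, Gbe1, Ppp1r3a and Ppp1r3c, and second to KO6 for Pfkfb3. Without KO5, no member with a higher knockout mean had an unadjusted p under 0.05, and likewise without KO6, and 1 did when any single wild-type mouse was left out, where 2 did with all mice.

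Glycolytic and glycogen genes were then set beside each other. Of the 15 glycolytic enzymes, 13 had lower knockout means, with a median difference of -0.37 against -0.12 for all tested genes, and 63.6% of all genes were lower. That count was also 13 after median-ratio and after quantile scaling. Of the 11 glycogen genes, 7 were lower, with a median of -0.088, and the count was 5 after median-ratio and 9 after quantile scaling. Relative to the median of all genes in the same mouse, the glycolytic list had a median deviation of 0.017, 0.20, 0.30 and 0.054 in WT1 to WT4 and -0.092, -0.30, -0.12 and -0.022 in KO5 to KO8. Every wild-type mouse lay above every knockout, but WT1 and KO8 were close, and after median-ratio scaling KO8, at 0.028, lay above WT1, at -0.011. After quantile normalisation the glycolytic list lay at 0.072 to 0.45 in wild type against -0.21 to -0.084 in knockouts, without overlap. The glycogen list had relative medians of -0.14, 0.17, 0.017 and 0.014 in WT1 to WT4 and 0.14, -0.17, -0.046 and 0.15 in KO5 to KO8, and its groups overlapped fully. Fast fibre markers gave -0.18, 0.15, 0.24 and 0.009 in WT1 to WT4 and 0.22, -0.24, -0.069 and 0.13 in KO5 to KO8, so the mice of lowest fast fibre medians, WT1 and KO6, were also the lowest in the glycogen list as deposited. After quantile normalisation the fast fibre median of WT1 was 0.22 and no longer low. The list medians less the all-gene median were -0.25 for the glycolytic and 0.030 for the glycogen genes with all mice, and -0.24 and 0.026 without WT1 and KO6. The glycogen value lay on either side of 0: it was -0.079 after quantile normalisation, -0.070 without the filter on low values, -0.044 without WT1, -0.034 without KO5 and -0.024 without KO8, and 0.099 without WT2 and 0.10 without KO6. The glycolytic value was below 0 under every alternative, between -0.36 and -0.19. Summed FPKM of the 31 genes made up 3.503% ± 0.777 of all FPKM in the wild-type mice against 2.54% ± 0.247 in the knockouts (SD, n = 4 each), with WT3 at 4.62% and every knockout below every wild-type mouse.

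**Figure D4:**
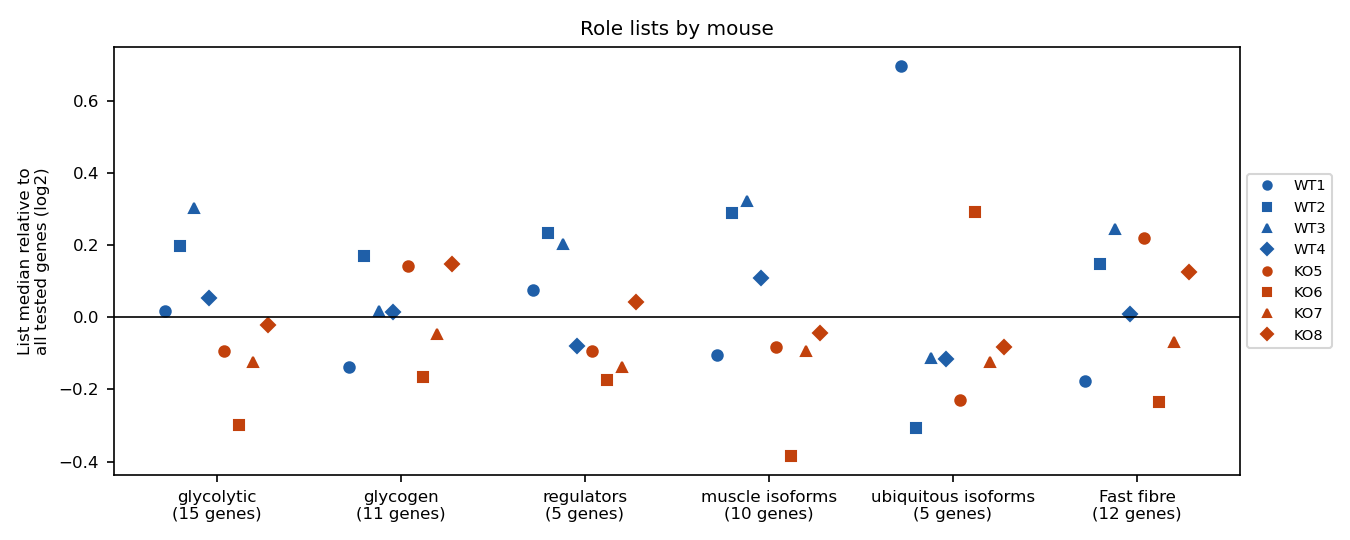
Median deviation of each role list from the 8-mouse mean, minus that of all tested genes in the same mouse, on the log2 scale, with fast fibre markers for comparison. The glycolytic list is at 0.017 to 0.30 in wild type and -0.30 to -0.022 in knockouts, whereas ubiquitous isoforms are highest in WT1 and KO6.

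The forms made mainly in muscle were compared with the forms made in most tissues. Pgam2 exceeded Pgam1 by 1477-fold and Eno3 exceeded Eno1 by 102-fold in mean FPKM of wild type, and by 1362-fold and 125-fold in knockouts. Levels of Pgam1 and Eno1 are uncertain, because much of their sequence recurs in other genes. The 250 bases before the RefSeq start sites of these pairs (GRCm38.p6, the mm10 build, read along each gene's own strand) are shown because the muscle forms differ from their counterparts in CpG content there. Capitals mark each CG.
Pgam2, chr11:5803797-5804046, minus strand: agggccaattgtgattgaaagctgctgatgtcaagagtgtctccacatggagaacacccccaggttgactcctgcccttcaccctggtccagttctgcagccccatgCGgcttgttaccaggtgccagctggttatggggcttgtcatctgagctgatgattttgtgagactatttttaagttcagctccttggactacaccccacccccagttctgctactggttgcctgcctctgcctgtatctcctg
Pgam1, chr19:41911621-41911870, plus strand: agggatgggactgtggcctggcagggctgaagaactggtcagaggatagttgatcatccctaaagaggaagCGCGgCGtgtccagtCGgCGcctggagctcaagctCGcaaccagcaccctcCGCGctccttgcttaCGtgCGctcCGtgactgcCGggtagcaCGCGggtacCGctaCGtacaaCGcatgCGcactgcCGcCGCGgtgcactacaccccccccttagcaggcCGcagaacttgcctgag
Eno3, chr11:70656926-70657175, plus strand: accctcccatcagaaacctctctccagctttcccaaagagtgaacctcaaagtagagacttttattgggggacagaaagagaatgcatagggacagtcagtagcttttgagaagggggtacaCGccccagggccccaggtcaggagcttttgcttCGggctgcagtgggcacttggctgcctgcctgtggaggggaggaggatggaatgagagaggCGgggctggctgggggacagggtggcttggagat
Eno1, chr4:150236458-150236707, plus strand: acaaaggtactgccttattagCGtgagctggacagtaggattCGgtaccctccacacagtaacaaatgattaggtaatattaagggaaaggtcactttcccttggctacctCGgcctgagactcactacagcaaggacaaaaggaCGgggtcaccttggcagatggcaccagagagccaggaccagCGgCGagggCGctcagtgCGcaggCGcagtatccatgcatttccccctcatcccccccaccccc

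The stretch before Pgam2 held 1 CG and that before Eno3 held 3, against 22 before Pgam1 and 9 before Eno1. Over all 32817 RefSeq windows of this length the median was 6. The division was not general, since Hk2, a muscle form, held 25 and Hk1 held 1. Of the 30 members with a window in the table, 10 held CAGCTG, an E-box of the kind that myogenic factors bind, on either strand, and so did 13% of all windows. Pgam2 was one of these 10 and Eno3, Pgam1 and Eno1 were not. A match of letters is a description and not a binding site.

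The 10 members listed as muscle forms were Hk2, Pfkm, Pgam2, Eno3, Pygm, Phka1, Phkg1, Gys1, Fbp2 and Ppp1r3a. That listing was not tested, since only gastrocnemius was measured. Only Hk2, Pfkm, Pgam2 and Eno3 have a counterpart among the 5 ubiquitous forms, so the lists are not matched. Of these 10 muscle forms, 8 had lower knockout means, with a median difference of -0.42. Of the 5 ubiquitous forms 4 did, with a median of -0.25, and of all tested genes 63.6% did, with a median of -0.12. With 0.1 added to each FPKM in place of 1, these medians were -0.42, -0.39 and -0.15. The gap between muscle and ubiquitous forms thus depended on the added constant. A filter at a mean FPKM of 5 left 1 of the 5 ubiquitous forms. The count and median of the ubiquitous forms also rested on single mice, at 3 and -0.0042 without WT1, where the median of all genes was -0.071. Without KO5 the count was 3 and without KO6 it was 5, with a median of -0.39. Each ubiquitous form was below its muscle counterpart in every mouse. Pfkl, the liver phosphofructokinase, read 6.06, 1.26, 2.23 and 2.04 FPKM in WT1 to WT4 and 1.65, 3.25, 1.88 and 0.900 FPKM in KO5 to KO8. Pfkp, the platelet form, read 3.296, 1.25, 1.71 and 1.74 FPKM in WT1 to WT4 and 1.96, 4.66, 1.58 and 2.14 FPKM in KO5 to KO8. Both were high in WT1 and KO6, and the genotypes overlapped. Pgam1 read 2.56, 0.570, 1.11 and 0.823 FPKM in WT1 to WT4 and 0.3802, 2.14, 0.9302 and 0.671 FPKM in KO5 to KO8. Eno1 read 56.1, 27.9, 31.7 and 31.5 FPKM in WT1 to WT4 and 23.5, 35.9, 21.8 and 20.96 FPKM in KO5 to KO8. In each of these 4 genes the highest mice were WT1 and KO6, the mice with raised adipocyte markers, and 3 of the 4 were highest in WT1. The part of fat cells in these levels was not tested.

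None of the 5 isoform pairs passed the test between genotypes, and the genotypes overlapped in each. The log2 ratio of Hk2 to Hk1 was 4.897 ± 0.832 in the wild-type mice against 5.69 ± 0.452 in the knockouts (SD, n = 4 each), a difference of 0.79 (exact permutation p = 0.0571, 0.286 adjusted over the 5 pairs). WT3, at 3.67, was the low mouse and KO5, at 6.34, the high one, and without WT3 the difference was 0.38. The ratio of Pfkm to Pfkl was 8.01 ± 0.914 in the wild-type mice against 7.82 ± 0.3597 in the knockouts (SD, n = 4 each), a difference of -0.18 (exact permutation p = 0.743, 0.743 adjusted over the 5 pairs). The ratio of Pfkm to Pfkp was 8.29 ± 0.632 in the wild-type mice against 7.54 ± 0.475 in the knockouts (SD, n = 4 each), a difference of -0.75 (exact permutation p = 0.143, 0.357 adjusted over the 5 pairs). For both, WT1 and KO6 were the lowest mouse of their group, and without these mice the differences were -0.46 and -0.84. The exact permutation p of each was then 0.333 after adjustment over the 5 pairs. The mice left were too few for any exact permutation p to pass the threshold, even before adjustment, so it decides nothing. In these mice Pfkm to Pfkp was 8.28 to 8.78 in wild type against 7.45 to 7.998 in knockouts, without overlap. Pfkm to Pfkl still overlapped, with KO8 at 8.18 above WT4 at 8.13. The ratio of Pgam2 to Pgam1 was 9.75 ± 0.495 in the wild-type mice against 9.503 ± 0.559 in the knockouts (SD, n = 4 each), a difference of -0.25 (exact permutation p = 0.514, 0.643 adjusted over the 5 pairs). The ratio of Eno3 to Eno1 was 6.68 ± 0.553 in the wild-type mice against 6.94 ± 0.4496 in the knockouts (SD, n = 4 each), a difference of 0.26 (exact permutation p = 0.514, 0.643 adjusted over the 5 pairs). That difference was 0.0037 without WT1, 0.44 without WT2, 0.47 without KO6 and 0.11 without KO8, and 0.067 after quantile normalisation. The smallest p that 4 against 4 mice allow is 0.0286, and a single pair at that value would not pass after adjustment over 5. Within each family the muscle form made up at least 94.4% of the FPKM in every mouse.

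**Figure D5:**
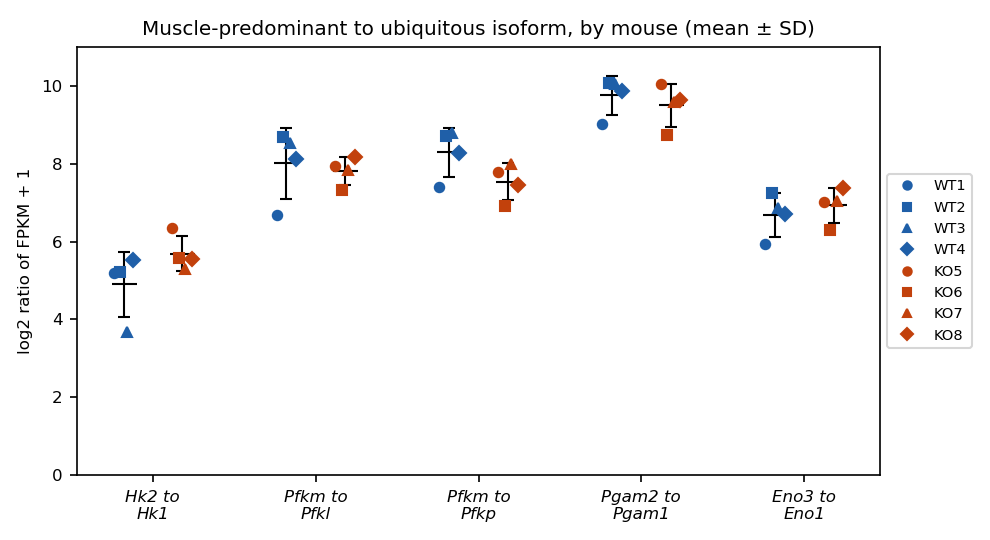
Log2 ratio of the muscle-predominant to the ubiquitous form of the same enzyme in each mouse, with mean and SD per genotype. Genotypes overlap in all 5 pairs, and WT1 and KO6 are the lowest mouse of their genotype in the 4 pairs other than hexokinase.

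How far a gene can be measured with uniquely mapped reads of 50 bases differs among these enzymes. In the longest coding transcript of each member in GENCODE M21, the share of 50-base words that also occur in a transcript of another gene elsewhere was computed. It was 82.5% for Gapdh, 72.2% for Eno1, 67.96% for Pgk1, 41.5% for Pgam1, 30.5% for Pkm, 19.6% for Gpi1 and 13.5% for Aldoa. The partners were chiefly processed pseudogenes, and for Eno1 the intronless copy Eno1b, which held 70.5% of its words. For 19 members the share was 0, among them Pgam2, Eno3, Pfkm, Gys1, Pfkfb1, Ppp1r3a and Hk2. The levels of the first 7 genes are therefore uncertain, and the values of Gapdh, Eno1 and Pgk1 rest on the smaller part of the transcript. Exons of 14 members partly overlap an exon on the opposite strand, at most 13.6% of their exon bases, in Pgm2. The sources used here do not give the strand setting, so reads from such stretches cannot be told apart. On the same strand, exons of another gene cover 15.3% of the exon bases of Pkm and 10.2% of those of Pfkm. Genes that overlap a member were left out of the shared words above, so a share of 0 does not cover such overlap.

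Other genes of the same pathways lay near the median of all genes. Of 42 further glycolysis and glycogen genes, 28 were tested and 0 passed by limma. Of these 28, 21 had lower knockout means, at a median difference of -0.14, and after median-ratio scaling 15 did. Ppp1cb, a catalytic subunit of PP1 that the tethering subunits above bind, had means of 75.9 ± 5.26 FPKM in the wild-type mice against 95.3 ± 6.92 FPKM in the knockouts (SD, n = 4 each), and its groups did not overlap. The phosphatase subunit Ppp1cc and the synthase kinase Gsk3a had means of 51.8 and 40.8 FPKM and of 24.9 and 17.6 FPKM in wild type and knockouts, and Gsk3a, like Ppp1cb, had groups that did not overlap, on the lower side. The limma adjusted p of these 3 genes was 0.48. Of the 28 tested, 1 was thus separated on the lower and 1 on the higher side, where 4.68% and 2.08% of all tested genes were. After median-ratio scaling these counts were 0 and 0, where 2.85% and 3.64% of all tested genes were separated.

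In the authors' deposited table, 24 of the 31 genes carry a flag for the looser of the 2 p-value thresholds and 18 for the stricter one, against 6.37% and 3.11% of all rows. Those shares are over all 39009 rows, of which 21285 to 23505 were at 0 in each mouse, whereas all 31 members averaged at least 1 FPKM. They are therefore not the shares among expressed genes. The sources used here do not name the test behind these flags. The 7 genes without a flag in the authors' deposited table were Gyg, Hk1, Pfkl, Pfkp, Pgam1, Ppp1r3c and Ugp2.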

How the data were processed

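RNA libraries (TruSeq RNA v2) of 4 wild-type and 4 Bcat2 knockout gastrocnemius muscles were sequenced as single-end reads of 50 cycles, 8 libraries to a lane, per the labels' protocols. The authors aligned reads to mm10 with TopHat 2.0.9 and computed FPKM from uniquely mapped reads with Cufflinks, version 2.0.2 per the labels' protocols and 2.2.1 per the submitters' processing notes. The deposited table holds 1 FPKM per gene and mouse, with the authors' means, errors and p-value flags. Read counts per library are not used here, so depth is known only in relative terms.

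From these FPKM, log2(FPKM + 1) was tested with limma 3.58.1 (R 4.3.3, trended variance, Benjamini-Hochberg over 11118 genes with a mean of at least 1 FPKM, threshold 0.05). This step was tested on simulated data with independent noise and with larger changes than any member showed. The simulation therefore does not tell whether differences of the size seen in the members could be called. Single values used exact permutation tests, two-sided. Myh4 of WT2, which carries a Cufflinks error flag per a note in the deposited table, was kept in the fast fibre sums. Wild-type columns match sample titles; knockout columns match the group only. Alternatives covered the pseudocount, the filter, scaling, variance models, depth as a covariate and left-out mice. Values by mouse are printed for members with an unadjusted p under 0.05 or separated groups, for isoform pairs, and for the 3 most abundant members. Of other pathway genes, those among the 4 of smallest p are named, except an item that is not reported here. The members and lists were chosen with earlier results of these data known. Promoter windows are from RefSeq (GRCm38.p6) and positions are those of the deposited table.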

Additional observations from a re-analysis of the deposited data

Results flagged for a closer look

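Among 72 sets of 4 mice of 1 genotype examined, 2 held a mouse far from its group, where chance alone flags about 5% of sets. Pgk1, phosphoglycerate kinase, stood at 199.9 FPKM in WT3, whereas the other wild-type mice lay between 157.5 and 160.4 FPKM. Eno1, the enolase of most tissues, stood at 56.1 FPKM in WT1, whereas the other wild-type mice lay between 27.9 and 31.7 FPKM. WT1 is the mouse with 15746 FPKM over the adipocyte markers, and the part of fat in its Eno1 value was not tested.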

How the results depend on the processing

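No member passed the threshold under any of the 20 alternatives, where the lowest limma adjusted p was 0.351, and 25 of 31 members kept the sign of their difference throughout (21 lower, 4 higher). The count of all genes past the threshold, 3, was 1 with zeros as missing, 11 without WT1 and KO6, and 4 to 9 when each mouse was left out (9 without WT1, 8 without WT2 or KO7, 6 without KO6, 5 without KO8). The 13 members with a lower mean and an unadjusted p under 0.05 became 2 after median-ratio scaling, 14 after quantile normalisation and 8 to 13 when each mouse was left out. The 2 with a higher mean became 1 with depth as a covariate, 0 without WT1 and KO6, and 0 to 2 when each mouse was left out. After quantile normalisation 7 members were separated on the lower side and 1 on the higher side. The shares of all tested genes were not computed for that setting. The sign reversed for Pfkp without KO6 (-0.013, to 0.42 without WT1), for Pgam1 without WT1 (0.086) or KO5 (0.0066, from -0.39 without KO6), for Phkb after median-ratio scaling (0.061) and for Ugp2 after quantile normalisation (-0.035). It reversed for Gyg after median-ratio scaling (0.13), with array weights (0.012) and without WT2, WT3, KO7 or KO8 (-0.071 to 0.030 over the left-out mice). It reversed for Ppp1r3c after quantile normalisation (-0.041), without WT1 and KO6 (-0.087) and without WT2, WT4, KO5 or KO6 (-0.17 to 0.27 over the left-out mice). The Pfkm to Pfkl difference reversed without WT2, in a range of -0.63 to 0.044 over the left-out mice, and the Pgam2 to Pgam1 difference without KO6, in a range of -0.495 to 0.0069. The cause was not tested. No paired analysis was possible because the labels give no litter or other pairing of wild-type and knockout mice. The knockout columns, numbered 5 to 8, also cannot be matched to the knockout samples, which the labels number 1 to 4 like the wild type. Read depth is known only in relative terms, which limits what can be said of members near 1 FPKM.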

Other observations

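Glycogen phosphorylase of brain and of liver type were low beside the muscle form and highest in the mice with raised fat transcripts. Pygb read 9.64, 1.33, 2.32 and 1.58 FPKM in WT1 to WT4 and 2.01, 5.74, 2.005 and 0.754 FPKM in KO5 to KO8. Pygl, the liver form, read 33.2, 0.505, 1.11 and 0.422 FPKM in WT1 to WT4 and 2.12, 12.4, 2.56 and 0.419 FPKM in KO5 to KO8. Both were highest in WT1 and second in KO6, and neither passed the test between genotypes (limma adjusted p = 0.85 and 0.97). Gys2, the liver glycogen synthase, was at or below 1.95 FPKM in every mouse and was not tested.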
